A study of Rattus norvegicus with 9 samples.

Results

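The voltage-gated sodium channels are the proteins that tetrodotoxin (TTX) blocks, and their transcripts were followed in silenced rat cortical neurons and after the toxin was washed away. The genes were Scn1a, Scn2a (Scn2a1 in the array annotation), Scn3a, Scn8a and Scn9a, which encode pore-forming alpha subunits, and Scn2b and Scn3b, which encode auxiliary beta subunits. Every array probe that the annotation names for these 7 genes was taken, which gave 7 of the 35537 gene names and 11 of the 41012 probes on the array. Of the 11, 9 passed the filter on dim probes, as did 30321 of all probes. Scn2a had 3 probes, Scn8a and Scn9a had 2 each, and each of the other genes had 1.

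Neurons were dissociated from prenatal rat cortex and used after 11 to 15 days in culture. All 9 samples had received TTX for 48 h, so no group of neurons with undisturbed activity is among them. The samples called TTX here (n = 3) were collected in the toxin, the W15 samples (n = 3) 15 min after 3 washes with medium, and the W45 samples (n = 3) 45 min after the same washes. The TTX samples were not described as mock-washed, so washing and removal of the toxin cannot be told apart. Each sample was read on its own 1-colour array from 500 ng of total RNA, and the labels do not say whether replicates were separate cultures, so that p-values measure the spread between these samples only.

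An alpha subunit folds around a sodium-selective pore and carries its own voltage sensors, and its brief opening drives the rising phase of the action potential. TTX plugs the outer mouth of that pore, which silences firing while leaving the channel protein in the membrane. Beta subunits span the membrane once, carry an immunoglobulin-like domain outside the cell, and tune the gating and the surface delivery of the alpha subunits. In rodent cortex Scn1a is known mainly from inhibitory neurons, Scn2a and Scn8a from the axon initial segment, Scn3a from the fetal brain, and Scn9a from peripheral sensory and sympathetic neurons.

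Only the 3 genes with more than 1 probe allow probes of a gene to be compared, so sequences of 5 of their 7 probes are shown. Positions are on the rn3 build as given in the array files, and capitals mark the longest run of bases that each probe shares with a probe of another gene on the array, on either strand.
Scn2a A_42_P529319, chr3:47618972-47619031, plus strand: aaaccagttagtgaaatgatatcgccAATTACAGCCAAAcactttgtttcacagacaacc
Scn2a A_44_P100365, chr3:47616658-47616717, plus strand: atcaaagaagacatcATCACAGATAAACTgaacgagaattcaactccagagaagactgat
Scn8a A_42_P677354, chr7:139870345-139870404, plus strand: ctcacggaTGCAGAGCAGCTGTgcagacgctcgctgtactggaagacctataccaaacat
Scn9a A_44_P386383, chr3:48335223-48335282, minus strand: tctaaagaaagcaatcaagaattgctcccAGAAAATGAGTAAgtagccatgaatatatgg
Scn9a A_44_P113806, chr3:48338785-48338844, minus strand: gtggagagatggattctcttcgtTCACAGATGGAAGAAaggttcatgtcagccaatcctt

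Each of the 11 probes is 60 bases long, with a GC content between 35.0% and 53.3%, and the longest run shared with another gene's probe was 13 to 15 bases. Scn3a, Scn2a, Scn1a and Scn9a lie together on chromosome 3, where their 7 probes fall within 946.2 kb. The Scn1a probe maps to chr3:48135438-48135497 and the Scn3a probe to chr3:47392644-47392703, both on the minus strand. On chromosome 8 the Scn2b probe maps to chr8:48086524-48086583 and the Scn3b probe to chr8:43262696-43262755, both on the plus strand. Probes A_44_P100365 and A_42_P529319 of Scn2a are 2254 bases apart. The annotation of exons and untranslated regions on rn3 was not used here.

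Between 72.4% and 77.9% of probes stood well above background on each array. The 75th percentile of the signal ran from 1563 on W45 replicate 2 to 2526 on TTX replicate 3 and was scaled out. Arrays of the same group correlated at 0.984 to 0.996. They lay on 3 slides. W45 replicate 1 shared slide 1 with W15 replicate 3 and TTX replicate 1, the remaining W45 and W15 arrays were on slide 3, and the remaining TTX arrays were on slide 2. Among the W45 arrays replicate 1 had the most effect on the counts. Without it, 123 probes were called lower at 45 min than in TTX, against 7 with it.

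The cultures carried the transcripts of neurons. All 7 general neuron markers, all 4 excitatory and all 3 inhibitory markers were well above background on every array. The summed scaled signal of the 7 neuron markers was 195 to 255 on W45 arrays, 200.1 to 267 on W15 arrays and 197 to 243 on TTX arrays. Other cells were present too. Of 7 astrocyte markers 6, of 7 oligodendrocyte-lineage markers all, and of 5 fibroblast and pericyte markers all were above background on every array. Of 6 microglia and macrophage markers 1 was, with Aif1 and Cx3cr1 above background on none, and of 4 endothelial markers 2 were, with Tek on none. No marker of these lists was called in any comparison with limma. Of the 38 markers that passed the filter, 1 reached an unadjusted p under 0.05 at 15 min over TTX (C1qa), 1 at 45 min over TTX (Cd68) and 2 at 45 min over 15 min (Nefl and Gad1), beside 3.36%, 6.37% and 6.61% of all tested probes. C1qa was above background on all 3 W15 arrays and on none of the others, so it passed the filter through that group alone. In such cultures fewer cells of a type and less RNA per cell cannot be told apart.

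The activity genes responded to washout. At 15 min Fos rose 29.1-fold over TTX (limma adjusted p = 0.00170), Junb rose 9.38-fold (0.00763) and Egr1 rose 4.31-fold (0.00762), all transcription factors of the immediate early response. Npas4, another such factor, was at least 19.4-fold higher, a bound set by the dimmest detectable signal in TTX. No TTX array showed the gene above background, so its probe passed the filter through the washout groups alone. The bound itself was not tested, and the limma adjusted p of 0.00170 belongs to the fitted log2 difference of 5.70. Arc, which acts at synapses, had a 3.21-fold difference that did not pass the test (0.199). At 45 min all 5 had risen over TTX, with Fos 97.4-fold, Arc 39.9-fold, Junb 34.4-fold, Egr1 18.4-fold and Npas4 at least 198-fold higher. With slide as a block, TTX replicate 1 is the only TTX array that informs the differences from TTX. The log2 rises at 15 min were then about as large, with Fos at 5.15 (4.86 without the block), Npas4 at 5.50 (5.70), Junb at 3.21 (3.23) and Egr1 at 2.28 (2.11). None of the 4 was called in that fit, which cannot decide whether the calls depend on the slide. With the normexp background correction the 15 min calls of Junb (adjusted p = 0.0753), Egr1 (0.0501) and Npas4 (2.55 on the log2 scale, adjusted p = 0.225) were lost and that of Fos was kept. Leaving out 1 array ended the call of Junb without any TTX replicate (adjusted p of 0.0528, 0.0691 and 0.0847 without replicates 1, 2 and 3) or W15 replicate 2 (0.0746), and that of Egr1 without TTX replicate 2 (0.0691) or W15 replicate 2 (0.0620).

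**Figure D1:**
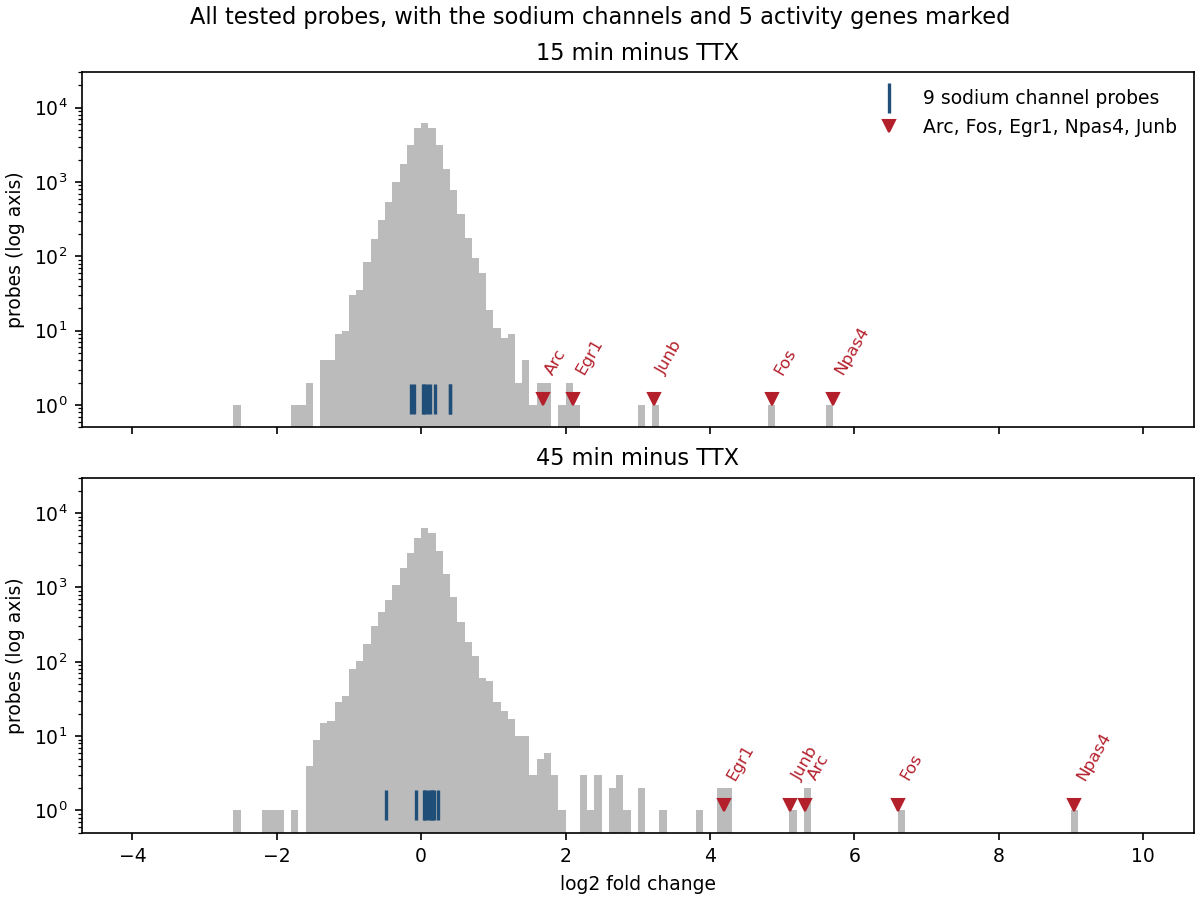
Number of tested probes (vertical axis, log scale) by log2 fold change (horizontal axis) for W15 over TTX and W45 over TTX, in grey. Blue ticks mark the 9 sodium channel probes, which lie between -0.15 and 0.41 at 15 min and between -0.49 and 0.23 at 45 min, inside the bulk of the probes, and red triangles mark the fitted values of the 5 activity genes, which lie to the right. The fitted value of Npas4 rests on TTX signals below background.

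No such rise was detected among the sodium channel probes. No channel probe was called at 15 min, at 45 min or between both times by limma at an adjusted p under 0.05, and none of the 9 reached an unadjusted p under 0.05 in any comparison. The background for these counts was 0.0198% of all tested probes called at 15 min against TTX, 0.198% at 45 min against TTX and 0.129% at 45 min against 15 min. At an unadjusted p under 0.05 it was 3.36%, 6.37% and 6.61% in the same order. A count of 0 among 9 is near each of these shares. The sizes of the differences lay close to those of the array at large. The median of the 9 log2 fold changes at 15 min over TTX was 0.08, beside 0.04 over all probes, and at 45 min over TTX it was 0.10 beside 0.04. The median absolute log2 fold change was 0.12 beside 0.14 at 15 min, and 0.13 beside 0.15 at 45 min.

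**Figure D2:**
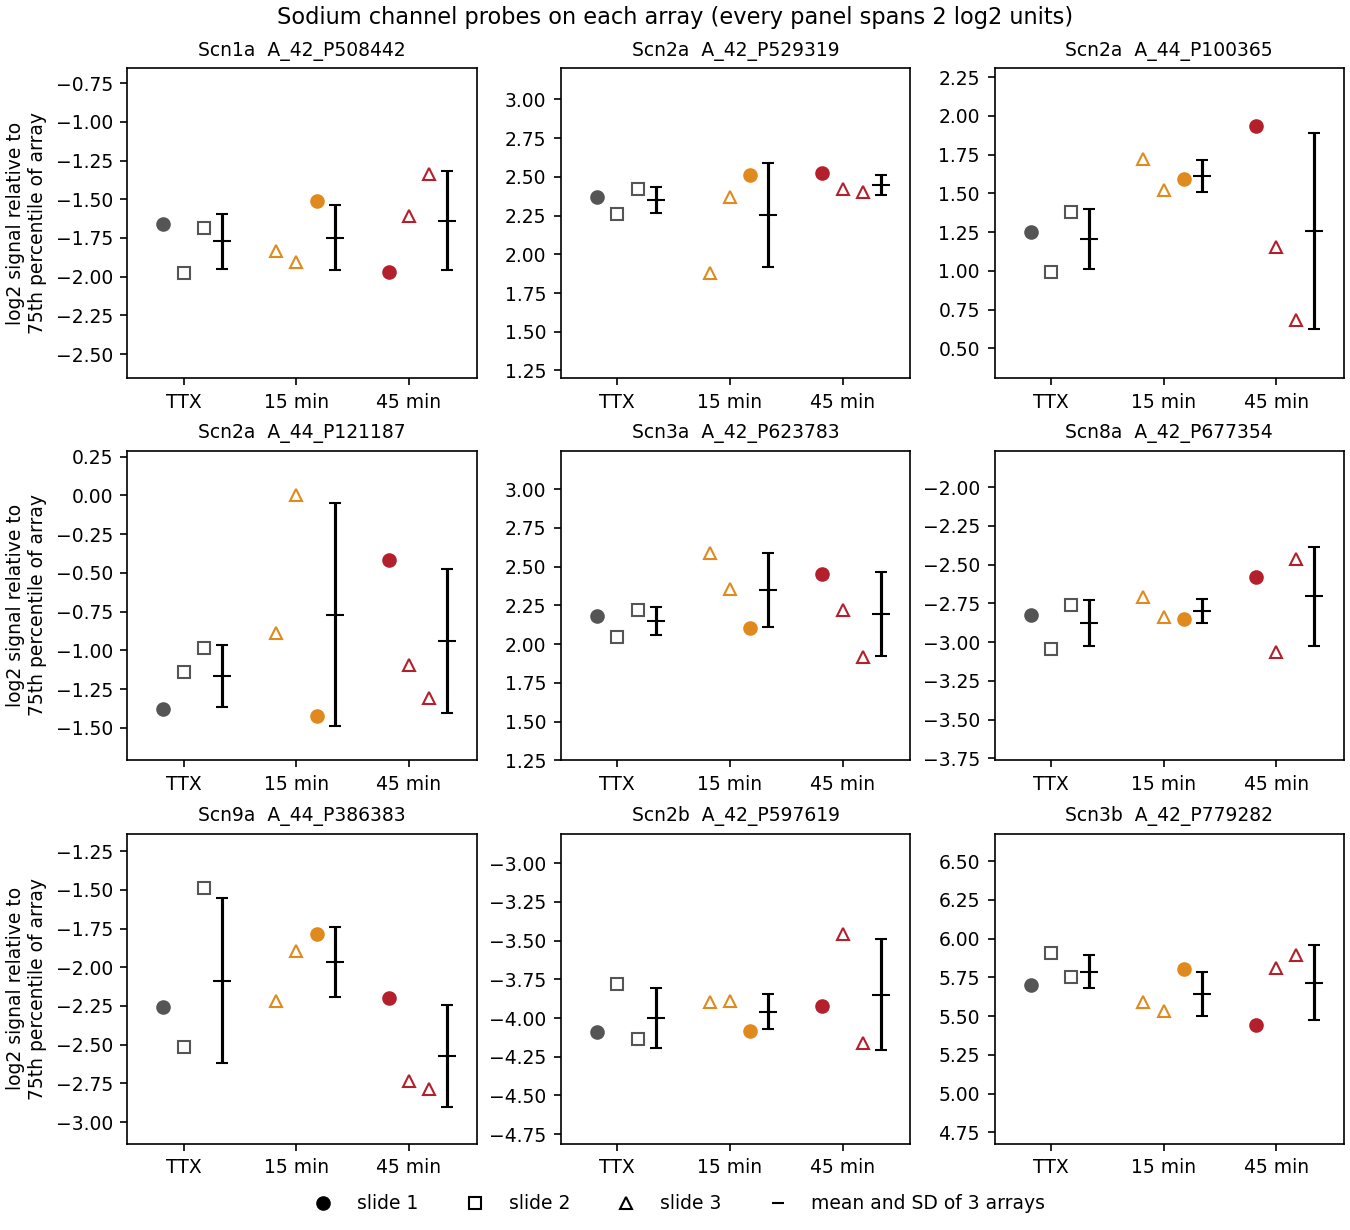
Log2 signal relative to each array's 75th percentile (vertical axis) of the 9 tested channel probes on each array, by group in order of time (horizontal axis), with points shaped by slide and bars for the mean ± SD of the 3 arrays of a group. In 8 of 9 panels the groups overlap at 15 min, and A_44_P100365 of Scn2a is the exception.

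Scn2a, a main channel of cortical axons, was read by 3 probes. Their estimates at 15 min over TTX differed in sign, and differences between the probes were not tested. All levels below are log2 signals relative to the 75th percentile of the same array. Probe A_42_P529319 read 1.88, 2.37 and 2.51 on the W15 arrays, against 2.37, 2.26 and 2.42 on the TTX arrays. On the W45 arrays it read 2.52, 2.42 and 2.41. All groups overlapped, and the single low value belonged to W15 replicate 1. The log2 fold change was -0.10 ± 0.17 (SE, 95% interval -0.48 to 0.28) at 15 min over TTX, and 0.10 (-0.28 to 0.48) at 45 min over TTX.

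Probe A_44_P100365 of Scn2a read 1.72, 1.52 and 1.59 on the W15 arrays, against 1.25, 0.99 and 1.38 on the TTX arrays. All 3 W15 arrays were above all 3 TTX arrays. It was the 1 probe of the 9 whose groups did not overlap in this comparison, and for both other comparisons there was 0 of 9. Among all tested probes 13.9% did not overlap in either direction at 15 min over TTX (9.47% upward), 11.6% at 45 min over TTX and 8.08% at 45 min over 15 min. With 3 arrays on each side, the smallest p that exact permutation allows is 0.1. The difference was 0.41 ± 0.28 (SE, 95% interval -0.21 to 1.03, limma adjusted p = 0.988). Within slide 1, with 1 array a group, it was 0.35. With slide as a block, where TTX replicate 1 is the only TTX array that informs it, the difference was 0.69 and not called.

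On the W45 arrays the same probe read 1.94, 1.16 and 0.68, a spread wider than that of any other group of this probe. Those arrays overlapped both the W15 and the TTX arrays. Over TTX the difference at 45 min was 0.05 (-0.57 to 0.67), and over W15 it was -0.35 (-0.97 to 0.26). The high array was W45 replicate 1. Without it the difference from W15 was -0.69, with the smallest adjusted p of any channel probe under any setting tried (0.153), and it was -0.70 within slide 3 and 0.34 within slide 1.

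Probe A_44_P121187 of Scn2a had the widest spread of the 9. It read -0.89, 0.00 and -1.42 on the W15 arrays, against -1.38, -1.14 and -0.98 on the TTX arrays, and -0.42, -1.10 and -1.31 on the W45 arrays. A single array in each washout group stood above the rest, replicate 2 at 15 min and replicate 1 at 45 min. The difference was 0.40 ± 0.35 (-0.39 to 1.19) at 15 min over TTX, and 0.01 without W15 replicate 2. At 45 min over TTX it was 0.23 (-0.56 to 1.02), and -0.03 without W45 replicate 1. The within-group SD of this probe, 0.51, was at the 91.8th percentile of all tested probes, whose median was 0.23.

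Scn8a, the channel of mature axon initial segments and nodes, was measured by A_42_P677354 only. It read -2.71, -2.84 and -2.85 on the W15 arrays, against -2.83, -3.04 and -2.76 on the TTX arrays, and -2.58, -3.06 and -2.46 on the W45 arrays. The W15 arrays had the narrowest spread, and all groups overlapped. The difference was 0.08 ± 0.17 (-0.31 to 0.47) at 15 min over TTX and 0.17 (-0.22 to 0.56) at 45 min over TTX. The interval at 45 min leaves room for a rise to 1.48-fold or a fall to 0.861-fold.

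Scn1a, best known from fast-spiking inhibitory neurons, read -1.83, -1.91 and -1.51 on the W15 arrays, against -1.66, -1.97 and -1.68 on the TTX arrays. On the W45 arrays it read -1.97, -1.61 and -1.33. Values of all groups overlapped, and both the highest value of the 9 and a value near the lowest were on W45 arrays. The difference was 0.02 ± 0.19 (-0.41 to 0.45) at 15 min and 0.13 (-0.30 to 0.56) at 45 min over TTX.

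Scn3a, the channel most used before birth, was still clearly detected at this culture age. It read 2.59, 2.36 and 2.10 on the W15 arrays, against 2.18, 2.05 and 2.22 on the TTX arrays, and 2.45, 2.22 and 1.91 on the W45 arrays. The W15 mean was the highest and the groups overlapped. The difference was 0.20 ± 0.18 (-0.20 to 0.60) at 15 min over TTX, 0.04 (-0.35 to 0.44) at 45 min over TTX and -0.15 (-0.55 to 0.24) at 45 min over 15 min. The last of these was 0.35 within slide 1 and -0.40 within slide 3.

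Scn9a, best known from pain-sensing neurons, had the largest differences of the 9 probes at 45 min. Probe A_44_P386383 read -2.20, -2.74 and -2.79 on the W45 arrays, against -2.25, -2.52 and -1.49 on the TTX arrays. On the W15 arrays it read -2.22, -1.89 and -1.79. Replicates 2 and 3 at 45 min were the lowest of all 9 arrays, while W45 replicate 1 lay among the TTX and W15 values. At 45 min the difference was -0.49 ± 0.27 over TTX (SE, 95% interval -1.10 to 0.13, unadjusted p = 0.108, limma adjusted p = 0.817). Over W15 it was -0.61 ± 0.27 (-1.22 to 0.01, unadjusted p = 0.0525, adjusted p = 0.762).

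The difference of Scn9a from TTX moved with single arrays and with the slide. It was -0.19 without TTX replicate 3, -0.04 with slide as a block and 0.06 within slide 1. The difference from W15 kept its sign over the 21 alternatives, with values from -0.80 to -0.41, and was -0.41 within slide 1 and -0.71 within slide 3. It was called under none of them. Among markers of peripheral neurons, the filament protein gene Prph had -0.36 on the log2 scale at 45 min over TTX (unadjusted p = 0.0182, limma adjusted p = 0.692), and its part in the Scn9a values was not tested.

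**Figure D3:**
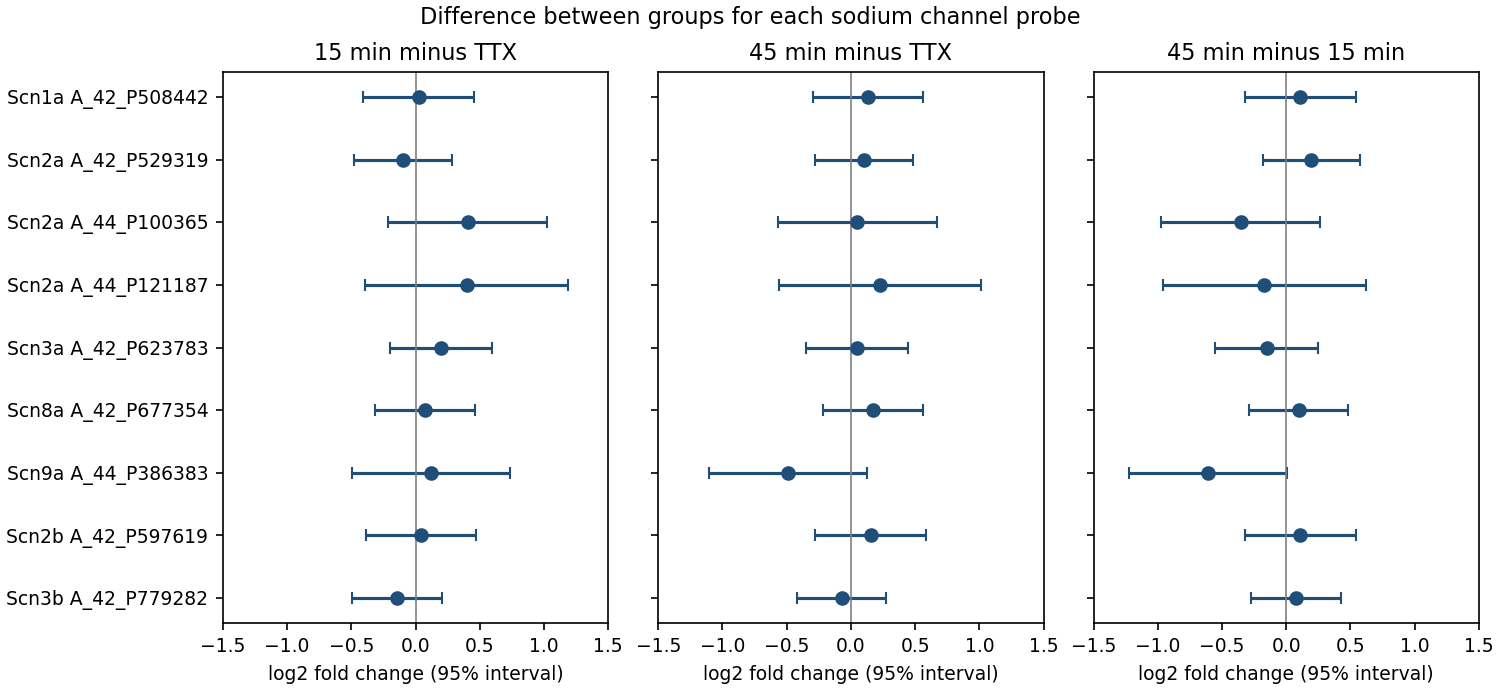
Log2 fold change (horizontal axis, with 95% interval) of each tested channel probe (rows) for W15 over TTX, W45 over TTX and W45 over W15. Every interval includes 0, and the interval of Scn9a in W45 over W15 ends at 0.01.

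The beta subunits were read by 1 probe each. Scn3b, which binds alpha subunits without a covalent bond, was the steadiest of the 9 probes, with a within-group SD of 0.17. It read 5.59, 5.53 and 5.80 on the W15 arrays, against 5.70, 5.91 and 5.75 on the TTX arrays, and 5.44, 5.81 and 5.90 on the W45 arrays. The groups overlapped, with the lowest value on W45 replicate 1. The difference was -0.15 ± 0.15 (-0.50 to 0.20) at 15 min and -0.07 (-0.42 to 0.28) at 45 min over TTX. As folds, the intervals ran over 0.709 to 1.15 at 15 min and over 0.747 to 1.21 at 45 min.

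Scn2b, which is joined to alpha subunits by a disulphide bond, read -3.90, -3.89 and -4.09 on the W15 arrays, against -4.09, -3.78 and -4.14 on the TTX arrays. On the W45 arrays it read -3.92, -3.46 and -4.16. These groups overlapped as well, and W45 replicate 2 was the highest. The difference was 0.04 ± 0.19 (-0.39 to 0.47) at 15 min and 0.15 (-0.28 to 0.58) at 45 min over TTX.

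Of the 9 probes, the largest SD belonged to the W45 group in 6, to the W15 group in 2 and to the TTX group in 1, that of Scn9a. W45 replicate 1 was the highest W45 array in 5 probes, the lowest in 2 and between the others in 2. Shares over all tested probes were not computed for these counts, and the 9 probes share their arrays. The counts therefore describe these probes and are not read as a feature of the channels. The difference of 45 min over 15 min had opposite signs on slides 1 and 3 in 5 of the 9 probes (Scn1a, Scn3a, Scn3b and the A_44_P100365 and A_44_P121187 probes of Scn2a). This was so for 54.6% of all tested probes, so that 5 of 9 is near the array at large.

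The second probes of Scn8a and Scn9a gave no level for most arrays. A_44_P168190 of Scn8a had processed signals of 2.66, 3.24 and 3.48 on the W15 arrays, against 2.79, 2.92 and 4.0 on the TTX arrays, and 2.56, 25.0 and 12.0 on the W45 arrays. It was well above background on W45 replicate 2 alone. A_44_P113806 of Scn9a had 12.3, 12.7 and 15.0 on the W15 arrays, against 8.80, 8.58 and 12.6 on the TTX arrays, and 5.19, 33.5 and 12.7 on the W45 arrays. It was well above background on W15 replicate 1 and on W45 replicate 2. For both genes the other probe was above background on all 9 arrays, and its value on W45 replicate 2 lay below all 3 TTX values.

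**Figure D4:**
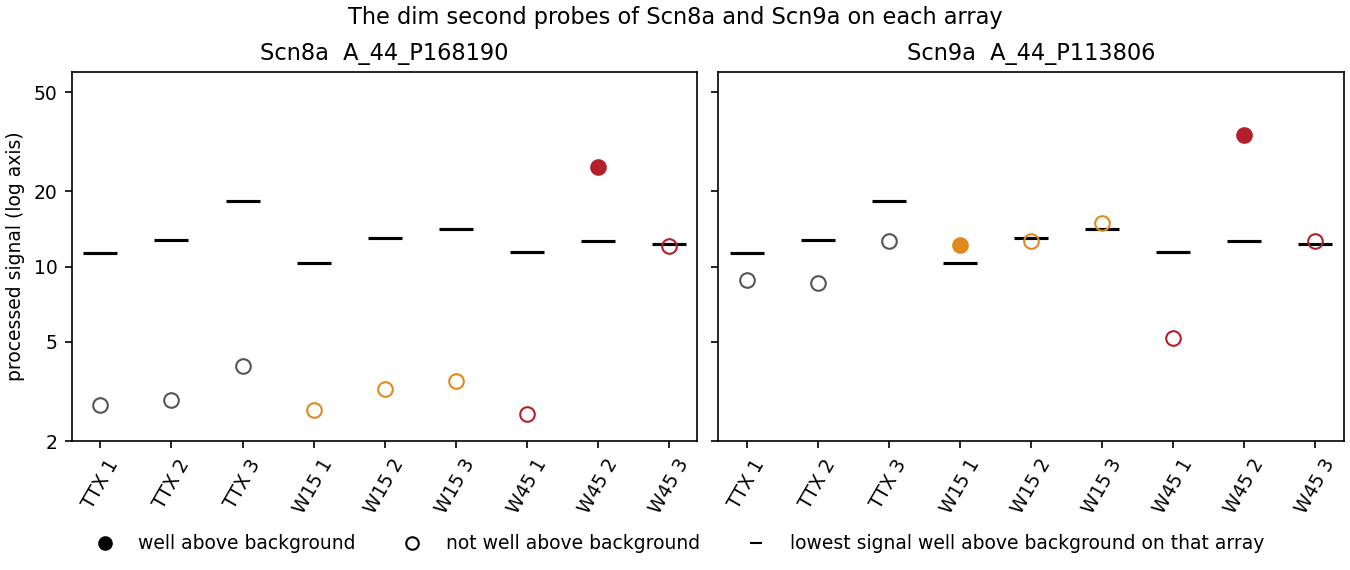
Processed signal (vertical axis, log scale) of the dim probes of Scn8a and Scn9a on each array (horizontal axis), with filled points where the spot was well above background and dashes at the lowest signal well above background on that array. The highest point of both panels is W45 replicate 2, at 25.0 and 33.5.

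The remaining subunit genes gave no call either, as did their scaffold and partner genes, with 0 higher and 0 lower in each comparison (limma). Of the 31 genes of these 4 lists that were tested, 1 reached an unadjusted p under 0.05 at 15 min over TTX (Scn10a), 0 at 45 min over TTX and 1 at 45 min over 15 min (Scn11a, -0.36), beside 3.36%, 6.37% and 6.61% of all tested probes. Of 6 other alpha subunit genes, 5 passed the filter, and Scn4a, the channel of skeletal muscle, was above background on no array. Scn10a, a TTX-resistant channel of sensory neurons, was above background on 2 of the 3 TTX arrays and on all others. Its difference over TTX was 0.88 ± 0.35 on the log2 scale at 15 min (adjusted p = 0.988, unadjusted p = 0.0330) and 0.73 at 45 min (adjusted p = 0.782). Scn11a, another resistant channel, had -0.25 (0.816) at 45 min, Scn7a, a sodium sensor, had 0.18 (0.964), and Nalcn, the sodium leak channel, had 0.17 (0.933). The list's median was 0.11 at 15 min and 0.17 at 45 min over TTX, beside 0.04 and 0.04 over all probes. Scn4b, another beta subunit, had a log2 fold change of -0.03 at 45 min over TTX (adjusted p = 0.994).

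The scaffold that holds sodium channels at the axon initial segment and nodes was likewise without a call. All 7 genes passed the filter, with a median of 0.12 at 15 min and 0.18 at 45 min over TTX. Trim46, which organises microtubules at the base of the axon, had 0.41 ± 0.18 (unadjusted p = 0.0506, adjusted p = 0.778) at 45 min over TTX. Nfasc, an adhesion molecule of the segment, had 0.35 (adjusted p = 0.827). Ank3, the ankyrin that anchors the channels, had 0.24 (0.906), and Sptbn4, its spectrin partner, had 0.18 (0.883).

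Of the genes for channel partners and regulators all 17 passed the filter, with a median of 0.00 at 15 min and 0.02 at 45 min over TTX. Fgf13, an intracellular FGF that binds the tails of alpha subunits, had -0.22 (adjusted p = 0.887) at 45 min over TTX, and its relative Fgf14 had -0.13 (0.969).

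For 6 of the 7 channels, the gene whose centred values over the 9 arrays lay closest was found by root-mean-square difference among 12254 genes with a symbol. Scn3b was nearest to Pak5 (0.06), Scn1a to Pibf1 (0.07), Scn8a to Rnase4 (0.07), Scn2b to Psmd7 (0.07) and Scn2a to Mtf1 (0.08). These distances compare with a median of 0.25 to 0.29 between those channels and all genes. Scn9a stood farther from its nearest gene, Tgfbi (0.20 beside a median of 0.48). The values share arrays and scaling, and the distances are a description only.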

How the data were processed

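The files hold 9 Agilent 1-colour rat arrays (design 014879), 45018 spots each. Per the file headers, the authors extracted each spot's intensity with Feature Extraction 9.5.3.1, whose processed signal is background-subtracted and not scaled between arrays. The deposited value table equals that intensity. Here 1639 control spots were left out, and the array's 75th percentile (1563 to 2526) was taken over all other spots. Spots of a probe were averaged after leaving out outlier-flagged spots. From these averages log2 of the processed signal minus log2 of the percentile was computed. Tests were made per probe, not per gene. The filter kept probes that 1 group or more showed well above background on each of its 3 arrays.

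Differences were tested with limma 3.58.1 (lmFit and eBayes, two-sided, in R 4.3.3) over all 9 arrays (6 residual degrees of freedom), with Benjamini-Hochberg adjustment over 30321 probes and a threshold of 0.05. A simulation with known changes was used to check the script. Gene names come from the files, updated through RefSeq accessions (10735 probes), symbols (5571) or synonyms (3729), with 20977 left as given. Named genes are all probes of the 7 channel genes, and from each list every gene called and up to 4 with the largest change at 45 min over TTX, each by its brightest kept probe. The members and lists were chosen with earlier results of these data known. The number of arrays limits the precision. Alternatives changed the background correction, scaling, filter, slide, replicate number, samples in the fit, spread estimate and each array in turn. The submitters' processing notes name Feature Extraction 9.5. Some results of these lists and some probe sequences are not reported here.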

Additional observations from a re-analysis of the deposited data

Results flagged for a closer look

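Both flagged values are signals of probes that were left out of the tests because they were dim. The Scn8a probe A_44_P168190 had a processed signal of 25.0 on W45 replicate 2, above background there, against 2.79 to 4.0 on the TTX arrays. The Scn9a probe A_44_P113806 had 33.5 on W45 replicate 2, against 8.58 to 12.6 on the TTX arrays. The same array carried 872 of the 1849 probes that were above background on exactly 1 array, against 39 to 360 on each other array. The median scaled log2 signal of the 8774 dim probes was -7.99 on that array, and -9.44 to -8.79 on the others. Whether this accounts for either value was not tested. With no filter on dim probes, the log2 fold change of the Scn8a probe at 45 min over TTX was 1.78 (limma unadjusted p = 0.0395, adjusted p = 0.739). That of the Scn9a probe was 0.66 (unadjusted p = 0.299, adjusted p = 0.820).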

How the results depend on the processing

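No channel probe was called by limma under any of the 19 tested alternatives at 15 min over TTX, the 19 at 45 min over TTX or the 20 at 45 min over 15 min, leaving out each replicate included (0 to 0 probes). The smallest adjusted p was 0.548 (Scn2a A_44_P100365, normexp, 0.44), 0.367 (Scn9a, without W45 replicate 1, -0.68) and 0.153 (Scn2a A_44_P100365, without W45 replicate 1, -0.69) in the same order. Uncalled log2 fold changes of the 9 probes differed in sign from the reported ones in 14 of 169, 17 of 169 and 8 of 178 values, and the cause was not tested. Normexp moved the median of all probes to 0.20 at 15 min and 0.12 at 45 min over TTX, and no scaling moved it to -0.16 and -0.22. Scn3a at 15 min was 0.23 and -0.00 under these settings.

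Counts over all probes moved more. At 15 min over TTX 6 probes were higher and 0 lower (0 to 10 and 0 to 3 over the alternatives). At 45 min over TTX 53 were higher and 7 lower (21 to 80 and 1 to 123), and over 15 min 36 and 3 (0 to 74 and 0 to 160). Without W45 replicate 1 there were 80 higher and 123 lower than TTX, and 74 higher and 160 lower than W15. Without W45 replicate 3, 37 were lower than TTX and 37 lower than W15, and without W45 replicate 2, 1 and 0. With slide as a block 0 probes were called at 15 min, and 21 higher and 4 lower at 45 min over TTX. Slide 3 alone, which holds no TTX array, gave 0 higher and 0 lower at 45 min over 15 min.

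Replicate numbers are shared by the groups, but the labels do not tie them to a culture or day. Deviations of the 9 same-numbered pairs of arrays correlated at 0.06 to 0.38, with 7 pairs above 0.1. All 9 arrays correlated best with an array of their own number, a hint from the data and not from the design. The replicate block left 0 channel probes called in each comparison, with 5 probes higher and 0 lower at 15 min over TTX, 45 and 6 at 45 min over TTX, and 27 and 3 at 45 min over 15 min.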
